A study of Mus musculus with 12 samples.

Results

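This is an account of what changed across the genome when RAW264.7 cells were cultured with estradiol. The lists of inflammatory NF-kB genes and of cholesterol synthesis genes are not described as groups. Genes on them, such as Cxcl2, were kept where they were among the largest changes or on other lists. The comparison set the 3 arrays labelled Estradiol against the 3 labelled Unstimulated, 6 of the 12 arrays of the series. RAW264.7 is a macrophage-like line from a male mouse, grown here in RPMI with serum, antibiotics, glutamine and HEPES. The treated cultures had estradiol at 1 ug/mL overnight. The design text gives the other cultures vehicle, whereas their labels name no agent. No separate cultures or paired replicates are named, so a p-value here measures the spread between these RNA samples, which may be technical. The line is 1 established line of tumour origin, which limits it as a model of macrophages in tissue. The other 6 arrays hold macrophages washed from the lungs of pregnant and control mice, and enter here only to place a few levels.

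Estradiol, the main estrogen, acts through nuclear receptors that bind DNA at estrogen response elements or join other transcription factors, and through receptors at the membrane. Macrophages take up particles, present peptides on MHC class II molecules to T cells, and release cytokines, lipid mediators and proteases when activated. The transcription factor p53 is turned on by DNA damage and other stress and drives genes of cell cycle arrest, repair, metabolism and cell death.

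Each value below is the deposited intensity of a gene's brightest probe set on a linear scale, or a change on the log2(intensity + 1) scale with its standard error (SE), as estradiol minus unstimulated. A gene was called, and is said to have risen or fallen, at a limma adjusted p under 0.05 over 12393 genes. Genes are termed dim where fewer than 3 of the 6 arrays showed them over the 40th percentile of that array. The median intensity of the RAW264.7 arrays was 369 to 393, and the log2 values of arrays correlated at 0.996 to 0.999 within groups and 0.994 to 0.997 between them. Estradiol replicate 2 stood apart in RNA quality, with a 3' minus 5' difference for actin of 0.74 on the log2 scale. The other estradiol arrays were at 0.48 and 0.46 and the unstimulated arrays at 0.39 to 0.43, so the groups did not overlap for actin. For Gapdh (0.29 to 0.36 without and 0.34 to 0.47 with estradiol) and the transferrin receptor (3.20 to 3.32 and 3.16 to 4.31) they did, with estradiol replicate 2 highest for each. The part of RNA quality in the changes below was not tested. Without estradiol replicate 2, 1269 of the 1414 called genes were called as well. The groups of that fit still did not overlap for actin.

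Many genes changed by small amounts and few by large ones. Of the 12393 genes limma called 1414 (11.4%), of which 836 rose (6.75%) and 578 fell (4.66%). Dropping unstimulated replicate 1, 2 or 3 brought the calls to 681, 637 or 684, and dropping estradiol replicate 3 brought them to 824. Another scaling, with arrays shifted to a common median, gave 620 higher and 707 lower. Changes under 1.5-fold made up 1057 of the calls (74.8%), 76 genes rose past 2-fold and 30 fell past 2-fold, together 0.855% of genes. The NF-kB and cholesterol lists held 35 of the calls, which leaves 1379 outside them. For each called gene the estradiol arrays all lay on 1 side of the unstimulated ones, as they did for 34.8% of all genes. Separate groups, where given below for called genes, thus add no support beyond the call.

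Calls gathered at middle levels. With the genes ranked by mean level and cut into 5 classes of equal size, 2.38% of the lowest class were called, then 7.91%, 21.14%, 15.5% and 10.13% from low to high. Of the changes past 2-fold, 39 lay in the second class and 46 in the third, against 1 in the highest. Dim genes gave 228 of the calls, 161 that rose and 67 that fell. Where a called gene had several probe sets, all of them moved in the same direction for 486 of 605 genes (80.3%), against 51.0% of 4351 uncalled genes. Among the genes described below, 1 other probe set changed in the opposite direction for Crem (-0.14), H2-Ea (0.08), Il10ra (-0.08), Itgav (-0.06), Rfxank (0.01), Sptlc1 (-0.11), Tap1 (-0.12) and Wipi1 (-0.03), and 2 of the 3 probe sets of Lpcat1 did so.

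**Figure D1:**
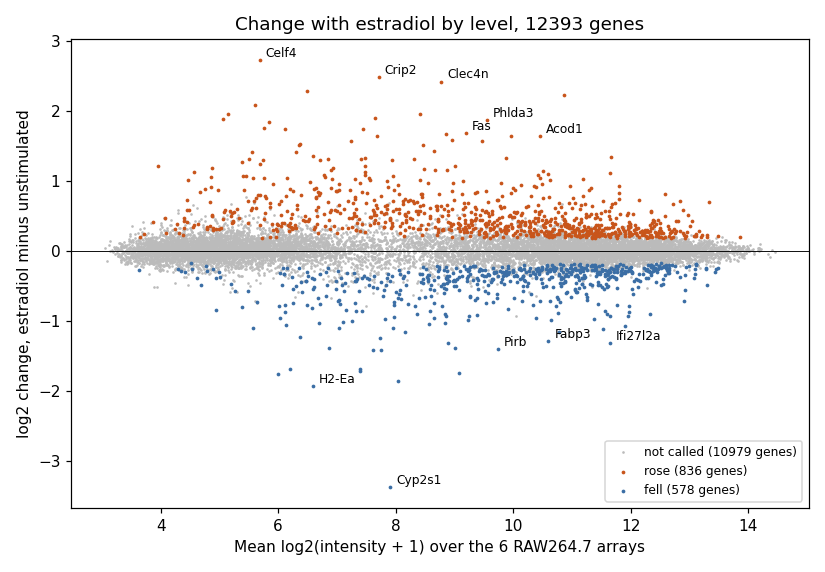
Change with estradiol (log2, estradiol minus unstimulated) against the mean log2(intensity + 1) over the 6 RAW264.7 arrays, with 1 point per gene. Genes that rose are orange, genes that fell are blue and the others are grey. The cloud of grey points is narrow at all levels, 76 genes rose and 30 fell past 2-fold, and Cyp2s1 lies lowest.

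The largest rise was that of Celf4, which encodes an RNA-binding protein and was dim, from 24.3, 18.9 and 15.0 to 164, 117 and 117 (6.59-fold, limma adjusted p = 0.000418). That is the chosen probe set of Celf4, and over its 3 probe sets the log2 change ran from 0.12 to 2.72. Crip2, for a LIM domain protein, followed, from 78.1, 103 and 84.1 to 499, 477 and 502 (5.56-fold). Clec4n, which encodes Dectin-2, a receptor for fungal mannans, rose from 184, 207 and 176 to 1092, 961 and 981 (5.34-fold, adjusted p = 3.6e-05). On every estradiol array these 3 genes were above all unstimulated arrays. Sulf2, for a sulfatase that trims heparan sulfate, rose 4.85-fold, from 40.2, 36.9 and 42.9 to 174, 221 and 200. Its level without estradiol was thus low, although it was not dim over the 6 arrays. The neutrophil chemokine gene Cxcl2, also an NF-kB target, rose 4.67-fold.

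Smaller rises among the 20 largest included that of Phlda3. Phlda3, a p53-induced repressor of the kinase Akt, read 412, 379 and 381 on the unstimulated arrays and 1310, 1599 and 1408 on the estradiol arrays, a rise of 1.87 ± 0.08 (SE; 3.66-fold, limma adjusted p = 8.9e-05). Il13ra2, a decoy receptor for interleukin 13, went from 294, 238 and 249 to 864, 850 and 769 (1.67 ± 0.09, adjusted p = 0.000174). Hspa1b, an inducible heat shock protein of the Hsp70 family, went from 474, 565 and 655 to 1761, 1975 and 1552 (1.65 ± 0.14, adjusted p = 0.000648). For these genes the lowest estradiol array was above the highest unstimulated array by a wide margin.

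Other large rises are given by example. S100a8, a subunit of calprotectin, read 116, 93.7 and 77.5 without and 326, 302 and 324 with estradiol (1.74 ± 0.14). Procr, the endothelial protein C receptor, read 383, 415 and 441 without and 1346, 1118 and 1215 with estradiol (1.57 ± 0.09, limma adjusted p = 0.000174). Serpinf1, which encodes the secreted factor PEDF, read 229, 264 and 239 without and 690, 634 and 656 with estradiol (1.43 ± 0.07). Slpi, an inhibitor of leukocyte proteases, rose 2.48-fold, the acute phase protein gene Saa3 2.52-fold and Agrn, which encodes the matrix protein agrin, 2.23-fold. Fosl1, which encodes the AP-1 subunit Fra-1, rose from 208, 206 and 207 to 570, 614 and 595 (1.51 ± 0.05, adjusted p = 3.6e-05). Stab1, a scavenger receptor, had the widest spread among the 20 largest rises, with 129, 109 and 108 against 315, 522 and 283, estradiol replicate 2 being the highest (1.64 ± 0.22, adjusted p = 0.00504). Fosl1, Procr, Serpinf1, Slpi, Saa3 and Agrn were chosen for mention after their values were seen.

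Some large rises started from dim signal. Matn1, a cartilage matrix protein gene, rose from 30.4, 28.0 and 29.9 to 132, 99.3 and 96.4, and Cdcp1, which encodes a transmembrane glycoprotein, from 28.9, 28.3 and 28.8 to 102, 92.3 and 101. Both stayed below the 40th percentile on most arrays. Acod1, whose enzyme makes itaconate in activated macrophages, was brighter, at 824, 774 and 774 without and 2602, 2394 and 2416 with estradiol (1.64 ± 0.06). Its call ended in the fit of all 12 arrays (adjusted p = 0.0801), in which lavage arrays help set the spread.

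No gene fell further than the cytochrome P450 gene Cyp2s1, which read 860, 736 and 712 on unstimulated arrays and 69.5, 82.9 and 69.4 on estradiol arrays (10.3-fold lower, limma adjusted p = 3.6e-05). Pirb, an inhibitory receptor of myeloid cells that binds MHC class I, went from 1401, 1373 and 1379 to 438, 634 and 523 and fell by 1.40 ± 0.13 (SE, adjusted p = 0.000911). Fabp3, a fatty acid carrier, went from 2364, 2628 and 2301 to 998, 933 and 1042 and fell by 1.29 ± 0.07 (adjusted p = 0.000174). Both were well expressed, and the groups were far apart. Hal, which encodes the enzyme that removes ammonia from histidine, fell 2.49-fold, from 832, 734 and 695 to 273, 328 and 306. The interferon-induced gene Ifi27l2a, among the brightest genes with a large change, fell from 4982, 5539 and 4681 to 2206, 1910 and 2004 (2.48-fold lower).

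Genes for surface proteins also fell. Cd28, known as a costimulatory receptor of T cells, went from 2295, 2718 and 2841 to 1252, 1080 and 1192 and fell by 1.15 ± 0.10 (limma adjusted p = 0.000713). S1pr1, a receptor that guides cells along sphingosine phosphate, went from 301, 336 and 336 to 176, 103 and 141 and fell by 1.24 ± 0.18, lowest on estradiol replicate 2. Tspan10, a tetraspanin, fell 2.22-fold and the elastic fibre gene Fbln5 2.60-fold. Tsc22d3, a gene induced by glucocorticoids, read 740, 889 and 887 without and 506, 181 and 354 with estradiol, lowest again on estradiol replicate 2 (-1.39 ± 0.34, adjusted p = 0.0450). Its call ended without estradiol replicate 3 (0.0964) or without unstimulated replicate 1, 2 or 3 (0.104, 0.139 and 0.134).

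**Figure D2:**
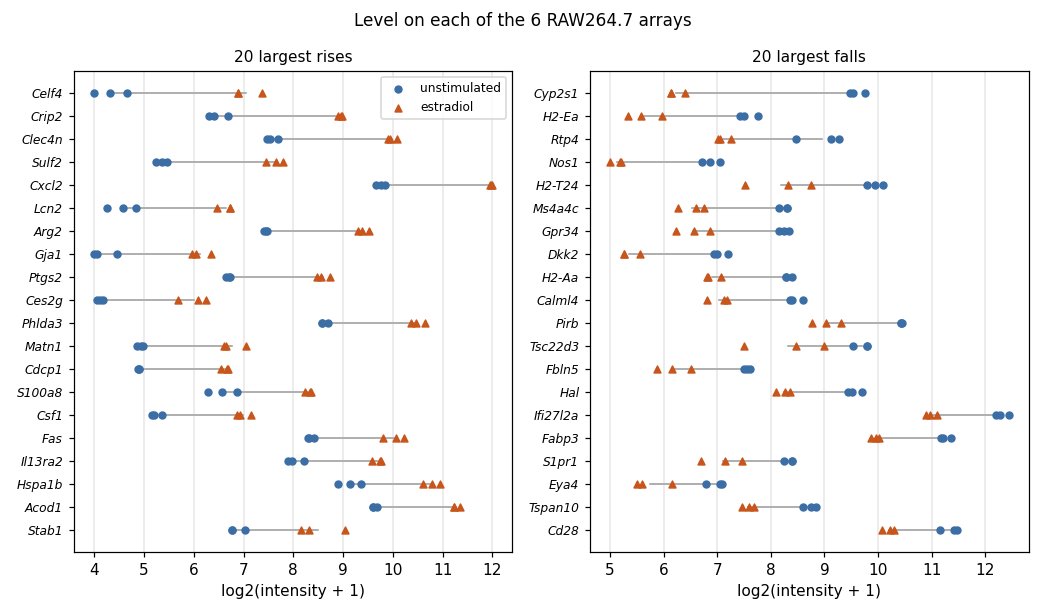
Level of the 20 genes with the largest rise (left) and the 20 with the largest fall (right) as log2(intensity + 1), with 1 point per array. Blue circles are the 3 unstimulated arrays, orange triangles the 3 estradiol arrays, and grey lines join the group means. The genes were picked among called genes with separate groups, so the lack of overlap is by selection. The spread is widest for Stab1, H2-T24 and Tsc22d3.

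Some genes of coagulation and its control fell, and were chosen after their values were seen. No list of such genes was drawn up, so the share of them that fell was not measured. F10, which encodes coagulation factor X, went from 837, 867 and 827 to 402, 445 and 436 and fell by 0.98 ± 0.06 (SE, limma adjusted p = 0.000183). F9, for factor IX, went from 209, 229 and 205 to 103, 120 and 98.0 and fell by 1.00 ± 0.09. Thbd, for thrombomodulin, the thrombin receptor that starts protein C activation, went from 218, 206 and 189 to 117, 132 and 116 and fell by 0.74 ± 0.08. Vwf, for von Willebrand factor, went from 706, 607 and 614 to 287, 417 and 318 and fell by 0.93 ± 0.14. Procr, which presents protein C to thrombomodulin, went the other way, as given above, and so did Pros1, for protein S, as given below.

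Across 41 gene lists, which cover macrophage functions, signalling and metabolism, the share of members called varied widely. The list of p53 targets had the highest share, with 24 of 35 measured members called. Costimulation and checkpoint genes, MHC class II genes and myeloid transcription factors followed, with 9 of 16, 7 of 14 and 11 of 27. Cytosolic ribosomal proteins, proteasome subunits and aminoacyl-tRNA synthetases had no called member. In the fit of all 12 arrays the counts of rises were 4 in place of 7 for matrix genes, 2 in place of 4 for iron genes, 3 in place of 5 for nutrient transporters and 2 in place of 5 for ribosome biogenesis. The counts of falls there were 4 in place of 8 for fatty acid genes and 2 in place of 4 for DNA replication. With a common median 3 rises in place of 6 were called for phospholipid genes, 2 in place of 4 for cAMP genes and 3 in place of 5 for ribosome biogenesis. The median change over all genes was 0.02, against which the lists' medians below can be read. The counts can be read against 11.4% of all genes called, 6.75% that rose and 4.66% that fell.

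**Figure D3:**
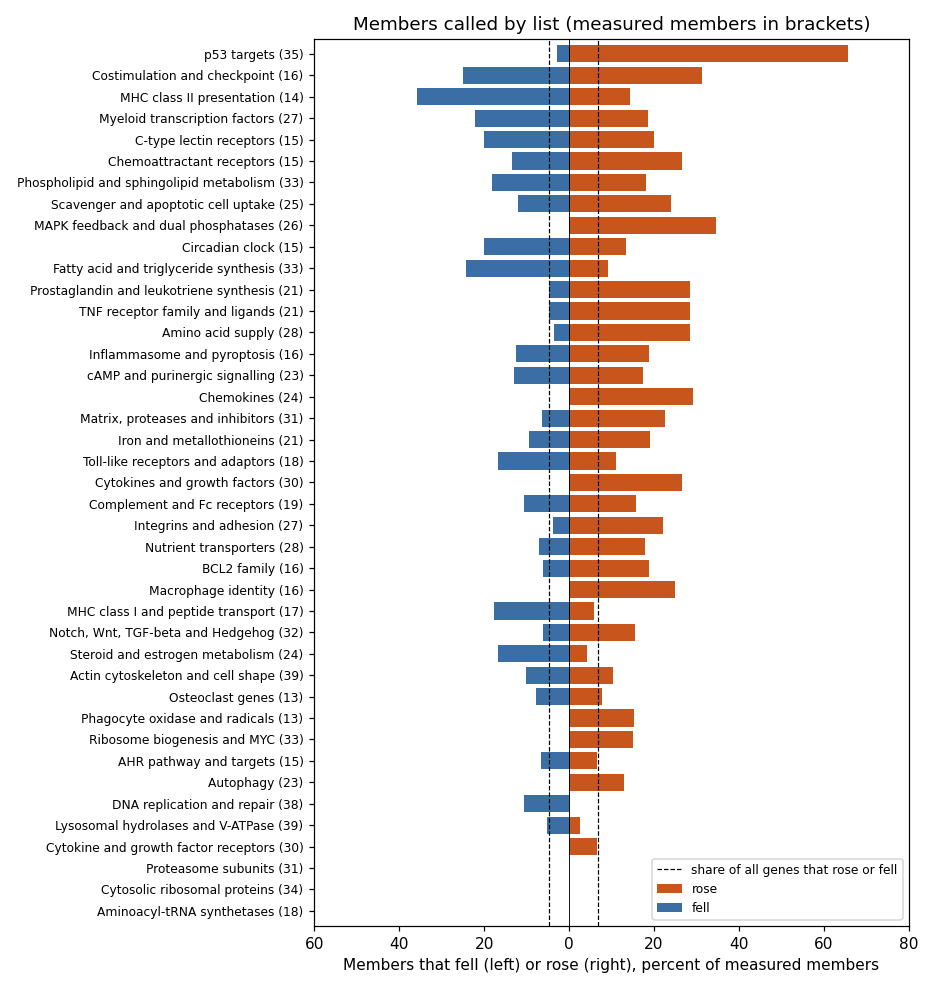
Share of each list's measured members that fell (blue, left) or rose (orange, right) with estradiol, in percent, with the number of measured members in brackets. Dashed lines mark the shares over all 12393 genes, 6.75% that rose and 4.66% that fell. The p53 target list reaches furthest to the right, and the MHC class II list furthest to the left.

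Most genes on the list of p53 targets rose. Of 35 measured targets 23 rose and 1 fell, against 6.75% and 4.66% of all genes, with a median change of 0.42 against 0.02. A positive change was measured for 30 of the 35. Leaving out each array in turn gave 18 to 23 members that rose and 0 to 2 that fell, and 18 members were called in all of those fits. Without estradiol replicate 2 the counts were 23 and 2, and with arrays at a common median 22 and 0.

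Arrest and feedback genes were among them. Cdkn1a, which encodes the cyclin kinase inhibitor p21, read 4407, 4776 and 4677 without and 8036, 7996 and 8216 with estradiol (0.81 ± 0.05, limma adjusted p = 0.000253). Mdm2, the ligase that marks p53 for degradation, read 5813, 5478 and 5861 without and 9459, 9588 and 8949 with estradiol (0.71 ± 0.05, adjusted p = 0.000505). Trp53inp1, a p53 partner in the stress response, read 1935, 2037 and 2166 without and 5673, 4802 and 5022 with estradiol (1.33 ± 0.08). These were bright genes, and every estradiol array exceeded every unstimulated one. The cyclin G1 gene Ccng1 rose by 0.45 ± 0.05, the RNA-binding protein gene Zmat3 by 0.54 ± 0.05 and the antiproliferative gene Btg2 by 0.87 ± 0.06. Gadd45a rose by 0.77 ± 0.16, lowest of the treated arrays on estradiol replicate 2 (2430, 1561 and 2244 over the 3), and its call ended without any one array other than estradiol replicate 2 (adjusted p = 0.0516 to 0.0842) and in the fit of all 12 arrays (0.163). Gadd45b was the member that fell (-0.45 ± 0.11, adjusted p = 0.0429), a call that ended without any one array other than estradiol replicates 1 and 2 (0.0691 to 0.141). It also ended with a common median (0.0508), with the mean of its probe sets (0.0777) and in the fit of all 12 arrays (0.516).

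The death receptor genes Fas and Tnfrsf10b rose as well. Fas, the receptor for Fas ligand, went from 313, 319 and 341 to 1192, 893 and 1074 (1.69 ± 0.11, limma adjusted p = 0.000253). Tnfrsf10b, the mouse TRAIL receptor, was dim and went from 65.4, 45.2 and 57.6 to 100, 93.5 and 110 (0.85 ± 0.13). Pmaip1, which encodes the BH3-only protein Noxa, went from 2986, 3012 and 3059 to 4847, 3875 and 4417 (0.53 ± 0.08). All 3 genes separated the groups. The BH3-only gene Bbc3, which encodes Puma, rose by 0.27 ± 0.07, a call that ended without each array in turn (adjusted p = 0.054 to 0.13) and with a common median (0.0679). Repair genes included Ercc5 (0.93 ± 0.07) and Xpc (0.39 ± 0.06) of nucleotide excision repair and the bypass polymerase gene Polk (0.56 ± 0.09). Ddb2 (-0.08 ± 0.05), also of excision repair, and Sesn1 (-0.21 ± 0.09) did not pass (adjusted p = 0.336 and 0.211), whereas the related Sesn2 rose by 1.01 ± 0.07. Ddit4, an inhibitor of mTORC1 signalling, rose by 1.10 ± 0.08, a call that ended in the fit of all 12 arrays (0.0602).

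**Figure D4:**
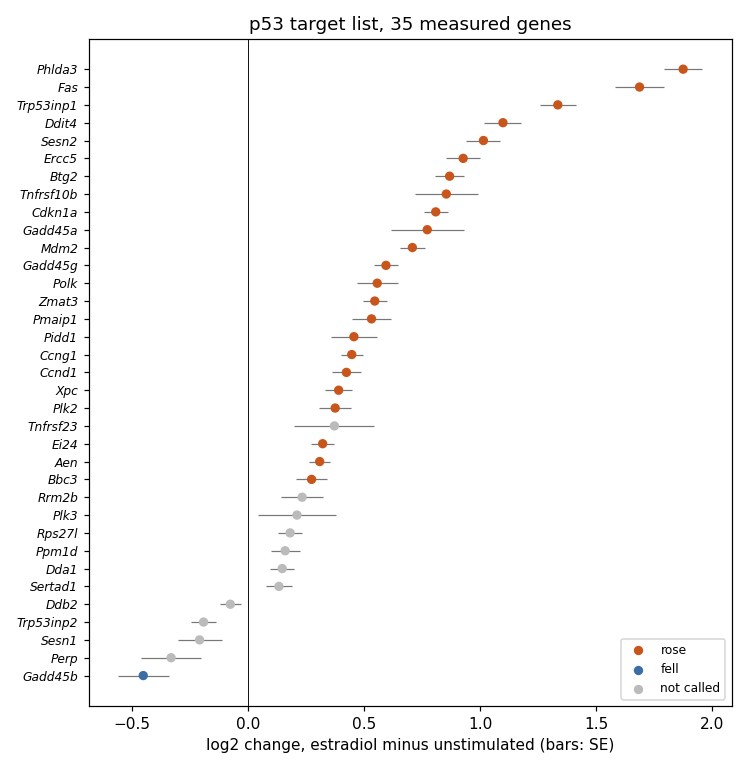
Change of the 35 measured p53 targets (log2, estradiol minus unstimulated) as points with bars of 1 SE. Orange members rose, blue fell and grey were not called. Of the 35 genes, 23 are orange, from Bbc3 at 0.27, whose call ended without each array in turn, to Phlda3 at 1.87, and Gadd45b is the blue one.

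The promoter of Cdkn1a is shown because it was the 1 list member, of 26 with a promoter entry, with a pair of p53 half-sites in the 250 bases before its start. The window below covers chr17:29090859-29090978 on the + strand of GRCm38.p6 (RefSeq), 5′ to 3′, and the capitals run from the first half-site through the second.
Cdkn1a: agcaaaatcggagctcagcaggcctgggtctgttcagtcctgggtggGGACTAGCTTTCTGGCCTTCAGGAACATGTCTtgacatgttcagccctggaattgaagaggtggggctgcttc
Half-sites had to match the search pattern at every base, with a gap of up to 13 bases, on both strands. Near matches, such as the bases directly after the second marked half-site, were not counted. The marked pair therefore need not be the pair that p53 binds. Such pairs were in 7 of all 9887 promoters (0.0708%) and in 1 of the 696 of genes that rose.

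The genes of the I-A and I-E chains of MHC class II fell. Of 14 measured class II genes 5 fell and 2 rose, and the list's median was -0.07. H2-Aa, the alpha chain of the I-A molecule, read 311, 334 and 309 without and 133, 111 and 113 with estradiol and fell by 1.42 ± 0.08 (SE, limma adjusted p = 0.000183). Its partner H2-Ab1 read 343, 346 and 354 without and 169, 193 and 179 with estradiol and fell by 0.95 ± 0.06 (adjusted p = 0.000277). H2-Ea, of the I-E molecule, read 171, 179 and 216 without and 61.6, 47.0 and 39.3 with estradiol. For these 3 chains the estradiol arrays were well below the unstimulated ones. The I-E beta chain gene H2-Eb1 read 311, 323 and 344 without and 186, 239 and 245 with estradiol and fell by 0.55 ± 0.11 (adjusted p = 0.0228), a call that ended without any one of the unstimulated arrays (0.0638 to 0.0889) and in the fit of all 12 arrays (0.251). Without any one of the unstimulated arrays 3 class II genes fell and 1 rose, and without estradiol replicate 3 the counts were 5 and 1.

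Among the other class II genes 2 rose and 1 fell. H2-DMa, which helps load peptide, went from 390, 374 and 407 to 557, 599 and 577 (0.56 ± 0.06, limma adjusted p = 0.00130). Cd74, the invariant chain, went from 7391, 7293 and 7151 to 8415, 9199 and 8738 (0.27 ± 0.05), a call that ended without any one array other than estradiol replicates 1 and 2 (adjusted p = 0.0691 to 0.091) and in the fit of all 12 arrays (0.277). Rfxank, a subunit of the RFX complex at class II promoters, fell (-0.43 ± 0.09, adjusted p = 0.0225), a call that ended without any one of the unstimulated arrays (0.0693 to 0.0932) and with its probe sets averaged (0.15). Ciita, the coactivator that sets class II transcription, was dim and did not pass (-0.23 ± 0.10, adjusted p = 0.212). Ctss, the protease that trims the invariant chain, did not pass (adjusted p = 0.968). Mr1, which presents vitamin metabolites to MAIT cells, went from 306, 306 and 328 to 162, 148 and 167 and fell by 0.97 ± 0.06 (adjusted p = 0.000277). It was chosen for mention after its values were seen.

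Class II promoters are known to carry a Y box, bound by NF-Y beside RFX. Those of H2-Aa and H2-Eb1 are shown as examples among the chains that fell. The promoters of H2-Ab1 and H2-Ea, which also fell, and of Cd74 and H2-DMa, which rose, are not shown. A link of the motif to the falls was not tested. The windows are chr17:34287824-34287943 on the - strand for H2-Aa and chr17:34305747-34305866 on the + strand for H2-Eb1 (RefSeq, GRCm38.p6), 5′ to 3′ along each gene, with the Y box in capitals.
H2-Aa: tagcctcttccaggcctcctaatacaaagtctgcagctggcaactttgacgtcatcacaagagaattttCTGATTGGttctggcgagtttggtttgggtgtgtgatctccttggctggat
H2-Eb1: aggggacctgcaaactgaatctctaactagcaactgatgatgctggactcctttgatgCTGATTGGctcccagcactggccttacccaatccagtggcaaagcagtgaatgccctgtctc
The motif CTGATTGG, searched on both strands of the 250 bases before the start, lay 51 to 44 bases before the start of H2-Aa and 62 to 55 before that of H2-Eb1. It was in 5.67% of all 9887 promoters, 9.05% of the 464 of genes that fell and 7.47% of the 696 of genes that rose.

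Of 16 costimulation and checkpoint genes 5 rose and 4 fell, with a median of 0.05. The counts were 4 and 2 without unstimulated replicate 1 or 2, and 3 and 2 without unstimulated replicate 3 or estradiol replicate 3. Cd40, the receptor through which T cells license antigen-presenting cells, went from 121, 104 and 123 to 275, 279 and 257 (1.22 ± 0.08, limma adjusted p = 0.000274). Tnfsf9, the ligand of 4-1BB, went from 3402, 3532 and 3535 to 5878, 5710 and 5770 (0.73 ± 0.05). Cd80, a ligand of CD28, went from 620, 691 and 663 to 1196, 957 and 1116 (0.72 ± 0.09). Each was higher on every treated array than on any unstimulated one. Genes for inhibitory receptors were among the falls, with Havcr2, which encodes TIM-3, going from 472, 489 and 500 to 291, 342 and 303 (-0.65 ± 0.07, adjusted p = 0.00212). Slamf8 fell by 0.68 ± 0.05, a call that ended in the fit of all 12 arrays (0.266). The PD-L1 gene Cd274 did not pass (0.07 ± 0.07, adjusted p = 0.597). The calls of Cd86 (0.55 ± 0.13), Icosl (0.65 ± 0.12), Pdcd1lg2 (-0.57 ± 0.14) and Vsir (-0.34 ± 0.07) each ended without some single arrays, the highest adjusted p being 0.134 without unstimulated replicate 3 for Cd86 and, without unstimulated replicate 2, 0.0801, 0.145 and 0.114 for the others. The call of Cd86 kept its side of the threshold without unstimulated replicate 2 alone. It also ended in the fit of all 12 arrays (0.326), with a common median (0.062) and with quantile normalization (0.0599). The arrays that the other calls needed were estradiol replicate 3 and unstimulated replicate 3, and, for Pdcd1lg2 and Vsir, unstimulated replicate 1 as well. Pdcd1lg2 also needed estradiol replicate 2, and Vsir estradiol replicate 1.

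**Figure D5:**
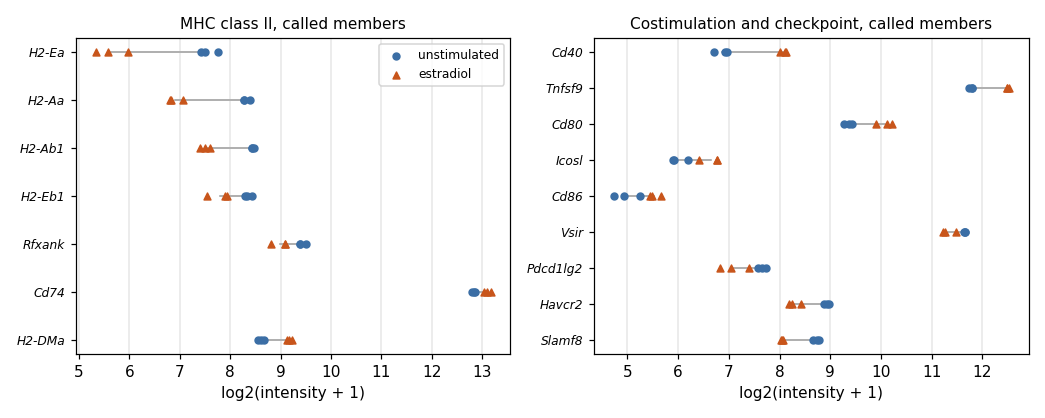
Level on each array, as log2(intensity + 1), of the called members of the MHC class II list (left) and the costimulation and checkpoint list (right). Blue circles are unstimulated arrays, orange triangles estradiol arrays, and lines join the group means. The class II chains shift left with estradiol, by up to 1.93, while Cd74 and H2-DMa shift right, and Cd40 shifts right by 1.22.

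Class I genes were on a separate list. Of 17 measured members of the class I and peptide transport list 1 rose and 3 fell, with a median of -0.04. H2-T24 had the largest change of the list (-1.745), and its call ended without unstimulated replicate 2 (limma adjusted p = 0.0526). The immunoproteasome genes Psmb8 and Psmb10 fell by 0.29 ± 0.05 and 0.32 ± 0.06, and the transporter gene Tap1 rose by 0.42 ± 0.08. Without unstimulated replicate 2 the calls of Psmb8, Psmb10 and Tap1 ended too (limma adjusted p = 0.0774, 0.0614 and 0.072), as did that of Tap1 with the mean of its probe sets (0.243). Those of Psmb8 and Psmb10 also ended without unstimulated replicate 1 (0.0672 and 0.0555), that of Psmb8 without estradiol replicate 3 (0.0581) and that of Tap1 without unstimulated replicate 3 (0.0713).

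The secreted signals that were called all rose. Of 24 chemokines 7 rose and 0 fell, and of 30 cytokines and growth factors 8 rose and 0 fell, with medians of 0.11 and 0.08. Dim genes made up 16 of the 24 and 19 of the 30, and 3 of the 7 and 5 of the 8 rises. Since dim genes have little room to fall, the lack of falls says little about direction. In the fit of all 12 arrays 3 chemokines rose, as the calls of Cxcl10, Ccl5, Ccl4 and Cxcl16 ended (limma adjusted p = 0.0617, 0.467, 0.583 and 0.391). Several members of these lists are also NF-kB targets. Il23a, a subunit of interleukin 23, was dim and went from 25.3, 23.2 and 29.6 to 72.6, 59.2 and 59.7 (1.26 ± 0.11, limma adjusted p = 0.000908). Lif, a cytokine of the interleukin 6 family, also dim, went from 62.1, 58.9 and 66.5 to 110, 128 and 92.8 (0.80 ± 0.12). The chemokine gene Ccl12 went from 17.7, 13.8 and 12.4 to 35.8, 25.3 and 30.7 near the floor of the arrays (1.02 ± 0.16). Each of these groups was separate. Cxcl16 rose by 0.34 ± 0.04. Vegfc, a growth factor of lymphatic vessels, rose by 0.64 ± 0.11, a call that ended without unstimulated replicate 1 (0.0542) or 2 (0.059).

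Receptors for these signals were measured too. Of 30 cytokine and growth factor receptors 2 rose and 0 fell. That share of rises, 6.67%, was near the 6.75% of all genes. Il17ra, a chain of the interleukin 17 receptor, went from 1035, 992 and 1091 to 1815, 2165 and 2048 (0.95 ± 0.08, limma adjusted p = 0.000647). Il10ra rose by 0.73 ± 0.12, a call that ended with the mean of its probe sets (0.11). Of 15 chemoattractant receptors 4 rose and 2 fell (2 and 2 without unstimulated replicate 2). Cx3cr1, the fractalkine receptor, went from 1517, 1428 and 1428 to 2204, 2419 and 2110 (0.62 ± 0.07), and Ccr1, a receptor of several CC chemokines, from 311, 345 and 343 to 209, 209 and 208 (-0.67 ± 0.06, adjusted p = 0.000763).

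The TNF receptor family rose in part. Of 21 receptors, ligands and adaptors 6 rose and 1 fell, with a median of 0.17. Beside Fas, Tnfrsf10b, Cd40 and Tnfsf9, given above, Tnfrsf9, the 4-1BB receptor, was dim and went from 43.8, 53.7 and 44.8 to 144, 131 and 137 (1.52 ± 0.09, limma adjusted p = 0.000183). The adaptor gene Traf1 rose too. Traf5 fell by 0.42 ± 0.09, a call that ended without any one array other than estradiol replicate 2 (0.0648 to 0.101). Traf4, outside the list and chosen after its values were seen, went from 84.6, 79.6 and 73.6 to 162, 238 and 147.

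Some genes of eicosanoid synthesis rose. Of 21 measured members 6 rose and 1 fell, with a median of 0.10. Without estradiol replicate 1, 2 fell, and 0 fell without estradiol replicate 3 or any one of the unstimulated arrays. The rises were 4 without unstimulated replicate 1 or 2, and 5 without estradiol replicate 3. Ptges, the inducible prostaglandin E synthase that acts after cyclooxygenase, went from 117, 124 and 119 to 262, 262 and 267 (1.13 ± 0.05, limma adjusted p = 8.7e-05). Ltc4s, which makes leukotriene C4, went from 489, 490 and 482 to 916, 794 and 888 (0.83 ± 0.06). Pla2g4a, the phospholipase that frees arachidonic acid, went from 3518, 3579 and 3616 to 4597, 4300 and 4434 (0.32 ± 0.05). The estradiol arrays were above the unstimulated ones for all 3. Ptger2, a prostaglandin E receptor, rose by 0.36 ± 0.06, and its adjusted p was 0.0507 and 0.0511 without unstimulated replicates 1 and 2. The 5-lipoxygenase activating protein gene Alox5ap fell (-0.21 ± 0.05), a call that ended without any one array other than estradiol replicate 2 (0.0667 to 0.127). Cysltr1, a receptor of the leukotrienes that Ltc4s starts, was chosen after its values were seen and went from 556, 711 and 620 to 382, 276 and 353 (-0.90 ± 0.14, adjusted p = 0.00883).

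On the list of matrix genes, proteases and inhibitors more members rose than fell. Of 31 measured members of this list 7 rose and 2 fell, with a median of 0.08. Without unstimulated replicate 1 or 2 the counts were 4 and 1, and 1 fell without unstimulated replicate 3 or estradiol replicate 1 or 3. Mmp9, a gelatinase, went from 301, 269 and 293 to 862, 857 and 874 (1.58 ± 0.06, limma adjusted p = 3.9e-05). Plaur, the urokinase receptor, went from 1010, 928 and 959 to 1822, 1577 and 1610 (0.79 ± 0.07). Timp2, an inhibitor of matrix metalloproteinases, went from 2675, 2665 and 2702 to 1721, 1801 and 1819 and fell by 0.59 ± 0.05 (adjusted p = 0.000573). The groups were apart for each. Adam8 rose by 0.66 ± 0.07, a call that ended in the fit of all 12 arrays (0.0615). Of 27 integrins and adhesion genes 6 rose and 1 fell (3 and 0 without unstimulated replicate 1 or 2, and 0 fell without unstimulated replicate 3 or estradiol replicate 1 or 3). Icam1, an adhesion ligand that is also an NF-kB target, rose by 0.57 ± 0.07, and Itga6, a laminin receptor chain with a dim signal, went from 59.3, 36.6 and 49.0 to 155, 99.2 and 136 (1.41 ± 0.21).

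Receptors that sense microbes moved in both directions. Of 15 C-type lectins 3 rose and 3 fell (1 fell without estradiol replicate 1 or 3 or unstimulated replicate 1, and 0 without unstimulated replicate 2 or 3). Mrc1, the mannose receptor, went from 227, 226 and 235 to 419, 359 and 355 (0.71 ± 0.07, limma adjusted p = 0.00164). Clec4e, which encodes Mincle, a receptor for mycobacterial glycolipid, rose from 6134, 6310 and 6114 to 9333, 9314 and 9201 (0.59 ± 0.04), a call that ended in the fit of all 12 arrays (0.225). Of 18 Toll-like receptors and adaptors 2 rose and 3 fell (1 rose without each array in turn, and 2 fell without unstimulated replicate 3). Tlr2 rose by 0.39 ± 0.06, while Tlr1, its partner for lipopeptides, fell by 0.40 ± 0.06 and Cd180 fell by 0.68 ± 0.07. The calls of Tlr1 and Cd180 ended in the fit of all 12 arrays (0.48 and 0.0553). Nlrp3, the inflammasome sensor, went from 944, 957 and 924 to 1926, 2141 and 1920 (1.08 ± 0.06, adjusted p = 0.000174), and with it 3 of 16 inflammasome genes rose and 2 fell. Of the inflammasome falls 0 stayed called without estradiol replicate 1 or any one of the unstimulated arrays, and 1 without estradiol replicate 3.

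Uptake of dying cells was represented by bridging proteins. Of 25 scavenger and uptake genes 6 rose and 3 fell, with a median of 0.06. Without estradiol replicate 3 or unstimulated replicate 1, 1 of them fell, and without unstimulated replicate 3, 0 fell. Pros1, the bridging protein S that links dying cells to TAM receptors, went from 2768, 2435 and 2634 to 4093, 3690 and 3846 (0.57 ± 0.07, limma adjusted p = 0.00314). Gas6, the other TAM ligand, went from 1589, 1576 and 1592 to 2256, 2071 and 2180 (0.45 ± 0.05), a call that ended in the fit of all 12 arrays (0.285). Itgav, an integrin chain that binds opsonized dying cells, rose by 0.35 ± 0.05. The fatty acid and scavenger receptor gene Cd36 fell (-0.52 ± 0.12), a call that ended without any one array other than estradiol replicates 1 and 2 (0.0694 to 0.131) and with its probe sets averaged (0.0547).

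Genes of cystine uptake and sulfur amino acids were among those that rose. Of 28 amino acid supply genes 8 rose and 1 fell, with a median of 0.09. Without estradiol replicate 3 or any one of the unstimulated arrays 0 fell. Slc7a11, the cystine and glutamate exchanger, went from 941, 950 and 1040 to 2078, 1955 and 1976 (1.04 ± 0.06), a call that ended in the fit of all 12 arrays (limma adjusted p = 0.123). Slc1a4, a transporter of serine and alanine, went from 352, 314 and 302 to 558, 591 and 555 (0.82 ± 0.07, adjusted p = 0.000779). Cth, which makes cysteine from cystathionine, went from 251, 233 and 248 to 414, 384 and 407 (0.72 ± 0.06). The groups were apart for each. The partner chain gene Slc3a2 rose by 0.38 ± 0.05. Of 18 aminoacyl-tRNA synthetases, limma called 0, with 1 at an unadjusted p under 0.05.

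Glutathione transferases, chosen after their values were seen, did not move as 1 group. Gstp1 went from 1883, 1918 and 1795 to 3467, 3441 and 3552 (0.90 ± 0.05, limma adjusted p = 0.000174). Gstt1 went from 109, 110 and 110 to 208, 256 and 209 (1.02 ± 0.09). Mgst3, a microsomal member, went the other way, from 4111, 4202 and 3974 to 2358, 2103 and 2297 (-0.86 ± 0.06, adjusted p = 0.000368). Metal handling also shifted, with 4 of 21 iron and metallothionein genes up and 2 down (1 down without any one array other than estradiol replicate 2). The metallothionein gene Mt2 went from 8142, 8158 and 7903 to 13005, 12984 and 13105 (0.69 ± 0.04), and Steap3, a ferrireductase, from 823, 839 and 849 to 500, 518 and 564 (-0.67 ± 0.06). Slc39a14, an importer of zinc and iron chosen after its values were seen, went from 739, 740 and 760 to 1410, 1413 and 1352 (0.90 ± 0.05).

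Other transporters and autophagy genes gave scattered rises. Of 28 nutrient transporters 5 rose and 2 fell (3 and 1 without unstimulated replicate 1 or 2, and 1 fell without unstimulated replicate 3 or estradiol replicate 1 or 3). Slc15a3, a lysosomal peptide transporter, went from 883, 809 and 767 to 1086, 1247 and 1155 (0.50 ± 0.08, limma adjusted p = 0.00830), and Slc46a3 from 595, 605 and 568 to 426, 463 and 432 (-0.42 ± 0.06). Of 23 autophagy genes 3 rose and 0 fell. The share of autophagy genes called was only a little above the 11.4% of all genes. Without estradiol replicate 3 or any one of the unstimulated arrays 2 autophagy genes rose. Without estradiol replicate 2, 4 rose and 1 fell. Ulk1, the kinase that starts autophagy, went from 543, 558 and 551 to 892, 1187 and 944 (0.86 ± 0.11), and Wipi1, which marks the forming membrane, from 169, 177 and 162 to 315, 357 and 287 (0.91 ± 0.09). Of 39 lysosomal hydrolase and proton pump genes 1 rose and 2 fell (0 fell without estradiol replicate 3 or any one of the unstimulated arrays, and 4 without estradiol replicate 2). The share of lysosomal genes called, 7.69%, was below the 11.4% of all genes.

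Fatty acid genes gave both falls and rises. Of 33 fatty acid and triglyceride genes 8 fell and 3 rose, with a median of -0.08. Of them 3 fell without unstimulated replicate 1 or 3 or estradiol replicate 3, 2 without unstimulated replicate 2, and 5 without estradiol replicate 1. Acss2, which makes acetyl-CoA from acetate, went from 4688, 4293 and 4311 to 2203, 2427 and 2321 and fell by 0.93 ± 0.06 (SE, limma adjusted p = 0.000283). Scd1, the desaturase that makes oleate, went from 9400, 9243 and 9676 to 6396, 6452 and 6306 and fell by 0.56 ± 0.05, a call that ended in the fit of all 12 arrays (0.1). Hilpda, a lipid droplet protein, went the other way, from 1599, 1738 and 1666 to 2858, 2543 and 2652 (0.69 ± 0.06). Fatty acid synthase Fasn (0.34 ± 0.12) and the regulator Srebf1 (-0.43 ± 0.14) did not pass (adjusted p = 0.134 and 0.101), and estradiol replicate 2 was the highest treated array for both.

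Of 33 phospholipid and sphingolipid genes 6 rose and 6 fell (1 and 1 without estradiol replicate 3 or any one of the unstimulated arrays). Sptlc1, a subunit of the enzyme that starts sphingolipid synthesis, went from 2525, 2299 and 2430 to 3413, 3469 and 3101 (0.46 ± 0.06, limma adjusted p = 0.00625). Lpcat3, which builds arachidonate into phospholipid, went from 2188, 2269 and 2144 to 1527, 1730 and 1603 (-0.44 ± 0.06, adjusted p = 0.00578). For Lpcat1, a related acyltransferase, the chosen probe set rose by 0.28 ± 0.05, whereas the mean of its probe sets changed by -0.039 (adjusted p = 0.67). The rise of Lpcat1 also lost its call with a common median (0.0528) and without any one array other than estradiol replicates 1 and 2 (0.0562 to 0.0676).

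The signalling feedback genes that were called all rose. Of 26 MAPK feedback genes and dual specificity phosphatases 9 rose and 0 fell, with a median of 0.15. Without unstimulated replicates 1, 2 and 3, 5, 4 and 5 rose, and without estradiol replicate 2, 12 rose. Dusp16, a phosphatase of JNK and p38, went from 1000, 958 and 965 to 1569, 1491 and 1513 (0.64 ± 0.05, limma adjusted p = 0.000465). Dusp1 went from 2685, 2463 and 2685 to 4090, 3909 and 4416 (0.66 ± 0.07) and the pseudokinase gene Trib3 from 202, 212 and 186 to 330, 396 and 332 (0.81 ± 0.09). Estradiol arrays were the higher ones for all 3. Map2k6, the kinase that activates p38 and chosen after its values were seen, went from 670, 643 and 639 to 336, 311 and 308 (-1.03 ± 0.05, adjusted p = 0.000169). Among cAMP genes Pde4b, a phosphodiesterase, went from 1077, 1132 and 1131 to 2322, 2150 and 2247 (1.01 ± 0.05) and Crem, a cAMP-responsive transcription factor, from 442, 479 and 490 to 833, 689 and 760 (0.69 ± 0.08). In that list of 23 genes, which includes purine receptors, 4 rose and 3 fell (2 rose without any one array other than estradiol replicate 2).

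Myeloid transcription factors changed in both directions. Of 27 measured, 5 rose and 6 fell, with a median of -0.01. The counts were 3 and 4, 3 and 2, and 3 and 3 without unstimulated replicates 1, 2 and 3, and 3 and 3 without estradiol replicate 3. Cebpd, an acute phase regulator, went from 1089, 1062 and 1082 to 1517, 1673 and 1633 (0.58 ± 0.05, limma adjusted p = 0.00112). Ets2 went from 7300, 7102 and 7462 to 10150, 9550 and 9709 (0.43 ± 0.05). Irf4, a factor of alternative activation and dendritic cells, went from 455, 501 and 417 to 314, 260 and 292 (-0.66 ± 0.09, adjusted p = 0.00640). The groups were apart for each. Clock genes overlapped this group. Dbp, an output gene of the clock, went from 898, 814 and 801 to 399, 458 and 465 and fell by 0.93 ± 0.08 (adjusted p = 0.000779). Bhlhe40 went from 3137, 3039 and 2989 to 2152, 2294 and 2096 (-0.49 ± 0.05) and Nfil3, a repressor of the sites that Dbp activates, from 614, 620 and 647 to 881, 944 and 908 (0.54 ± 0.05). Of 15 clock genes 2 rose and 3 fell (1 rose without estradiol replicate 1 or 3 or unstimulated replicate 1 or 2).

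On the list of steroid and estrogen metabolism genes more members fell than rose, with a median of -0.06. Of 24 steroid and estrogen metabolism genes 1 rose and 4 fell (2 rose without estradiol replicate 2 or unstimulated replicate 2), with 11 of the 24 dim. Sult1a1, a sulfotransferase of phenols, was dim and went from 126, 144 and 138 to 80.3, 82.1 and 76.8 (-0.76 ± 0.06, limma adjusted p = 0.000763), and Hsd3b7, an enzyme of bile acid synthesis, from 1355, 1324 and 1325 to 1009, 1032 and 971 (-0.41 ± 0.05). Cyp2s1, given above, was another of the falls, and the dim carboxylesterase gene Ces2g was the rise (1.89 ± 0.14). In the list of 15 genes of the aryl hydrocarbon receptor pathway, which also holds Cyp2s1, 1 fell and 1 rose (3 and 2 without estradiol replicate 2, and 2 and 1 with a common median). Its members Ahrr (-0.15 ± 0.09) and Tiparp (-0.11 ± 0.05) did not pass (adjusted p = 0.356 and 0.189). In this list 13.3% of members were called, against 11.4% of all genes. The full estrogen response element, GGTCANNNTGACC on both strands of the 250 bases before the start, was in 2 of 9887 promoters (0.0202%), too rare to compare between genes that rose and fell. Elements further from the start were not searched.

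Housekeeping machinery moved little. Of 34 cytosolic ribosomal protein genes limma called 0 and 0 had an unadjusted p under 0.05, with changes that ran from -0.08 to 0.15. Of 31 proteasome subunits it called 0, with 3 at an unadjusted p under 0.05. Their changes ran from -0.17 to 0.11 with 3 of 31 positive. Of 38 DNA replication and repair genes 4 fell and 0 rose, with 0 falls without unstimulated replicate 1 or 2, 1 without unstimulated replicate 3 and 2 without estradiol replicate 3. The share of replication genes called, 10.5%, was near the 11.4% of all genes. Ribosome biogenesis and MYC genes gave 5 rises among 33, 3 without estradiol replicate 1 and 0 without estradiol replicate 3 or any one of the unstimulated arrays. Odc1, which makes polyamines, had the largest of these (0.43 ± 0.08), with a call that ended without unstimulated replicate 1 (0.0558), 2 (0.0644) or 3 (0.068), or estradiol replicate 3 (0.0505).

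Of 16 macrophage identity genes 4 rose and 0 fell, with 1 rise without any one array other than estradiol replicate 2 or with a common median, and 2 in the fit of all 12 arrays. Aif1, which encodes an actin-binding protein of macrophages, went from 272, 282 and 273 to 382, 399 and 414 (0.53 ± 0.05, limma adjusted p = 0.00130), a call that ended in the fit of all 12 arrays (0.0812). The Fc receptor gene Fcgr1 rose by 0.30 ± 0.06, a call that ended without any one array other than estradiol replicate 2 (0.0596 to 0.0909) and with a common median (0.0838). Cd14, the lipopolysaccharide coreceptor, rose by 0.20 ± 0.05, a call that ended without each array in turn (0.0557 to 0.156) and with a common median (0.139). Of the defining genes Adgre1 (0.11 ± 0.07), Cd68 (-0.03 ± 0.05), Csf1r (0.13 ± 0.06), Lyz2 (0.08 ± 0.05) and Ptprc (0.12 ± 0.06) did not pass. Itgam, which encodes CD11b, rose by 0.38 ± 0.09 (limma adjusted p = 0.0392), a call that ended without any one array other than estradiol replicate 2 (0.0537 to 0.133) and in the fit of all 12 arrays (0.298). It also ended with a common median (0.0784) or quantile normalization (0.0658). All 10 fibroblast and all 10 epithelial markers were dim, as were 8 of 9 lymphocyte, 12 of 13 neutrophil and mast cell and 7 of 8 endothelial and erythroid markers. The neutrophil and mast cell sum was 444 to 465 without and 627 to 675 with estradiol, which moves with S100a8, the single member called. The endothelial and erythroid sum fell from 821 to 923 down to 504 to 657 and moves with Vwf. Il7r was the bright lymphocyte marker and did not pass (-0.21 ± 0.06, adjusted p = 0.0540).

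Lavage macrophages place some of these genes on a wider range. In control lavage the mean log2 level of Clec4n was 13.3, above RAW264.7 cells with estradiol (9.98), and that of Sulf2 was 12.3 against 7.63. Il13ra2 went the other way, at 5.04 in lavage against 8.02 without and 9.69 with estradiol in the line.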

How the data were processed

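Total RNA of 12 samples, 3 in each of 4 groups, was measured on Affymetrix mouse arrays. The deposited table gives each probe set an intensity on every array, on a linear scale that runs from 6.51 to 28506. RMA made these values, per the submitters' processing notes, which name no version, and since RMA usually gives log2 values the log base was taken from the range of the values. Of 22690 probe sets, 20380 had 1 gene symbol in the platform annotation, 691 several and 1555 none, and 64 were controls. The probe set with the highest mean over 12 arrays was kept, which gave 12393 genes. The build of that annotation is not given in the sources used here, and promoters are RefSeq's.

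The log2(intensity + 1) values of the 6 RAW264.7 arrays went into lmFit and eBayes of limma 3.58.1 (R 4.3.3), two-sided, with Benjamini-Hochberg adjustment over all genes. Counts, promoter searches and plots were made in Python 3.11.15 (numpy 2.4.6, pandas 2.3.3) and drawn with matplotlib 3.10.9. The fit was tested on simulated data. Fold changes understate those of dim genes, and for arrays their number limits the precision.

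Named genes were the 20 largest rises and 20 largest falls with separate groups, up to 5 called members of each list, up to 2 others where fewer than 2 were called, and defining macrophage markers. Genes chosen after their values were seen are marked as such in the text, apart from further members of the p53, MHC, costimulation, cytokine, lipid, amino acid and signalling lists, which were also added then. The comparison, the lists and the members were chosen with earlier results of these data known, so they are described by counts and medians beside all genes, with no set test. Of 1180 list genes 1022 were measured. Alternatives were other scalings, a filter on dim genes, the mean of probe sets, a pseudocount of 16, a robust prior, array weights, a fit of all 12 arrays, stricter thresholds and each array left out.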

Additional observations from a re-analysis of the deposited data

How the results depend on the processing

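The count of 1414 called genes (836 higher, 578 lower) stayed within 1.5 times under 7 alternatives, namely all 12 arrays in a single fit (1090), a common median (1327), quantile normalization (1490), the filter on dim genes (1812), the robust prior (1959), averaged probe sets (1413) and a pseudocount of 16 (1646). With array weights it was 4010 (2149 higher, 1861 lower), in a fit of the weights that stopped before convergence and gave estradiol replicate 3 a weight of 6.17 against 0.235 for replicate 2. An adjusted p under 0.01 left 558 genes (344 higher, 214 lower), and a fold of at least 2 left 106 (76 and 30). Leaving out each array gave 637 to 1730 calls, 396 to 959 of them higher and 241 to 771 lower. The lowest counts came without unstimulated replicates 2 (637), 1 (681) and 3 (684) and the next without estradiol replicate 3 (824). The cause was not tested. In all of those fits 551 genes were called, 347 higher and 204 lower. Over the 299 named genes and their alternatives, 3960 values kept their direction and side of the threshold, 735 lost a call, 32 gained one and 1 reversed, the change of Lpcat1 at -0.039 with averaged probe sets. A dim gene has no value under the filter on dim genes. No paired analysis was possible because the labels give the groups no shared replicate numbers.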
